A study of Mus musculus with 74 samples.

Results

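The neutrophil granule transcripts described here are those of 10 genes, S100a8, S100a9, Ltf, Ngp, Camp, Lcn2, Retnlg, Mmp8, Mmp9 and Elane, out of 49480 gene symbols in a table of read counts for 74 libraries. All 10 symbols were found in the table. The genes were chosen by name with their levels in these libraries already known, above all the levels in spleen macrophages and that of Ltf in tumor regulatory T cells. The values in those columns are therefore given as a description, with no test. The cells came from C57BL/6J mice, aged 12 or 3 months, that carried a tumor of MC38, a mouse colon carcinoma line grown under the skin, until day 10. Immune cells of the tumor and of the spleen were sorted as macrophages (CD45+CD11b+F4/80+), dendritic cells (CD45+CD11b+CD11c+MHCII+), regulatory T cells (CD45+TCRb+CD4+CD25+), conventional CD4 T cells (CD45+TCRb+CD4+CD25-) and CD8 T cells (CD45+TCRb+CD8+). Each library was made from 1000 cells sorted 2 times over, by Smart-seq2, which reads whole cDNA from small inputs. The 5 types, 2 tissues and 2 ages make 20 groups of 4 libraries, with fewer in 5 of them. There are 3 libraries of dendritic cells from the tumor at 12 months and from the spleen at each age, 3 of conventional CD4 T cells from the spleen at 3 months and 2 from the tumor at that age. All mice carried the tumor, so the spleens are those of tumor-bearing animals, and 4 dendritic cell libraries came from males while the other 70 came from females. The spleen dendritic cell libraries titled replicates 3 and 4 at 3 months carry an age tag of 12 months, and their titles were followed here. Each level is given as CPM, a gene's read count scaled to the same library total for all libraries.

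Neutrophils store antimicrobial proteins and proteases in granules that form in order as the cell matures in the bone marrow. Elastase and other primary granule proteins are made at the promyelocyte stage, lactoferrin, lipocalin 2, cathelicidin and neutrophilic granule protein somewhat later for the secondary granules, and the gelatinase Mmp9 later still for the tertiary granules. Transcription of the early and middle sets has mostly ceased in mature neutrophils of the blood, while S100a8 and S100a9, whose proteins fill the cytosol, remain abundant. The secondary granule genes depend on C/EBP transcription factors, C/EBP epsilon in particular. None of the 5 sorts was set on a neutrophil marker, but CD11b is also carried by neutrophils, and Ltf and Mmp9 are transcribed outside the neutrophil lineage as well.

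On the mouse GRCm38 build, annotated here with GENCODE M21, S100a8 (chr3:90668978-90670035) and S100a9 (chr3:90692632-90695721) are neighbours on chromosome 3. Camp (chr9:109847379-109849617), Ngp (chr9:110419747-110423012) and Ltf (chr9:111019271-111042767) lie near each other on chromosome 9, and Mmp8 (chr9:7558456-7568485) lies at the other end of it. Lcn2 (chr2:32384633-32388252) and Mmp9 (chr2:164940780-164955850) are on chromosome 2, Elane (chr10:79886247-79888215) on chromosome 10 and Retnlg (chr16:48872621-48874496) on chromosome 16. No other annotated gene overlaps any of the 10. Promoter windows from 250 bases before to 50 bases after the start, from RefSeq on GRCm38.p6, were at hand for 9 of the 10 genes and not for Mmp9. In the 250 bases before the start, the C/EBP letters TTNNGNAA, read on both strands, were found in 7 of the 9 genes (all but Camp and Elane), against 36.8% of 32851 promoters. The PU.1 letters GAGGAAG, also on both strands, were found in S100a8, Lcn2, Mmp8 and Elane, against 10.6% of all promoters. The AP-1 letters TGANTCA were found in none of the 9, against 6.75% of all. The letters TATAAA, read on the gene's strand, were found in S100a8 alone of the 9, against 7.59% of all promoters. Such matches describe the letters in the window and are not binding sites. The lines below show bases 220 to 61 before the start for 4 genes picked after their levels were seen. They were picked to set genes high in 1 sort beside one high in 2. The start is that of RefSeq, which for Ltf, Ngp and Mmp8 is not the first base given above. The C/EBP letters are in capitals, and each sequence is read 5′ to 3′ along the gene. Ltf was high in 2 sorts, Mmp8 did not follow the other genes in dendritic cells, and Ngp and S100a9 were high in the macrophage sort of the spleen and not in regulatory T cells.
Ltf, chr9:111019072-111019231, plus strand: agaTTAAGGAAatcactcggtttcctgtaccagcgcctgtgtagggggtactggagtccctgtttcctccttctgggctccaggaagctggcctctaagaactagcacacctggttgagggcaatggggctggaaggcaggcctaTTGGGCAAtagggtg
Ngp, chr9:110419588-110419747, plus strand: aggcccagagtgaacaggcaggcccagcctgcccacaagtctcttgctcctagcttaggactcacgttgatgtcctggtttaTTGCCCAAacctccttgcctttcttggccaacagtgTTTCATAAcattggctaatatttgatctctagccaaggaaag
Mmp8, chr9:7558209-7558368, plus strand: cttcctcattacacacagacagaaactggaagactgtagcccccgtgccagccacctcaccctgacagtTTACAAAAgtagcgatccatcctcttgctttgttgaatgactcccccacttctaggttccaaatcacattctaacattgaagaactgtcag
S100a9, chr3:90695782-90695941, minus strand: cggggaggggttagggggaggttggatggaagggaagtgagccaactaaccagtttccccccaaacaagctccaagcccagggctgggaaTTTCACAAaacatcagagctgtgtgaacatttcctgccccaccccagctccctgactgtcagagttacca
The Ltf stretch holds 2 such matches, as does the Ngp stretch, and those of Mmp8 and S100a9 hold 1 each. Over the whole 250 bases Ltf has 2, Ngp 3, Mmp8 2 and S100a9 2. The part of these letters in the levels was not tested.

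Totals per library ran from 1652812 to 9115858 counts, with a median of 4679409.5. In the tumor macrophage libraries 8 macrophage markers (Adgre1, which encodes F4/80, the C1q chains, Mertk, Cd68, Mrc1 and Apoe) summed to 14164 to 38119 CPM, against 3691 to 6250 CPM in spleen macrophages. A list of 10 neutrophil markers without any of the 10 genes (Ly6g, Csf3r, Cxcr2, Il1r2, Wfdc21, Stfa2l1, Mpo, Prtn3, Cd177 and Pglyrp1) ran the other way, with 317 to 738 CPM in tumor macrophages against 2607 to 5595 CPM in spleen macrophages. The libraries labelled spleen macrophages thus carried neutrophil transcripts, and the sums of both lists were of like size there. Apoe made up most of the macrophage sum, with a mean of 3360 CPM in spleen and 20371 CPM in tumor. Such sums depend on the genes listed and do not measure the share of each cell type. Genes of red pulp macrophages were mostly higher in the spleen macrophage libraries than in the tumor ones. Slc40a1 averaged 625 CPM in spleen and 16.9 CPM in tumor, Vcam1 223 and 62.4, Cd5l 73.5 and 0.789, and Spic 45.3 and 1.92. Hmox1 was lower in spleen, with 355 CPM against 672 CPM in tumor. Of monocyte genes, Ccr2 averaged 924 CPM in spleen macrophages and 1493 CPM in tumor macrophages, F13a1 627 and 411, and Ly6c2 286 and 632. The part of monocytes in the levels of the 10 genes was not tested. In bulk samples more cells of a type and more RNA per cell cannot be told apart. The regulatory T cell marker Foxp3 stood at 869 to 1310 CPM in tumor regulatory T cells, and at 889 to 1194 CPM in those of the spleen.

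**Figure D1:**
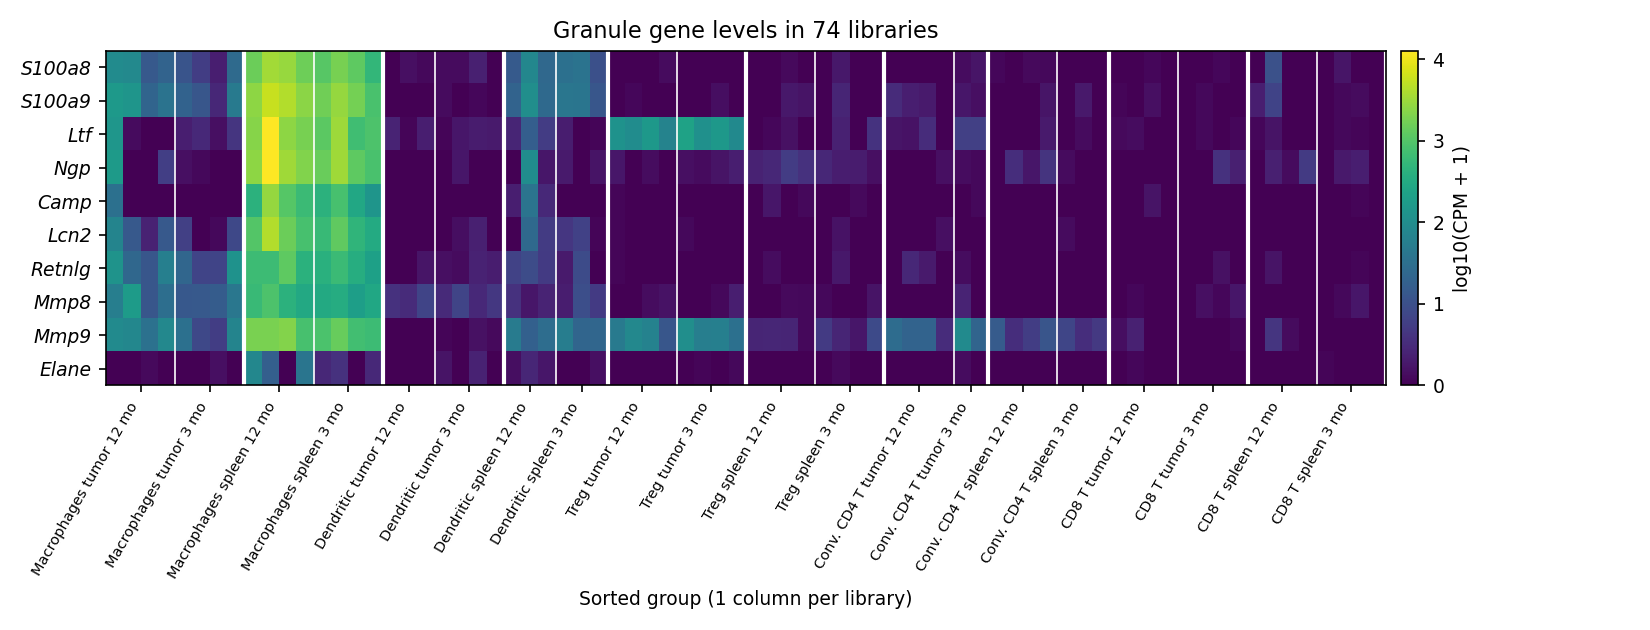
Levels of the 10 genes, as log10(CPM + 1) on the color scale, in each of the 74 libraries (1 column each, grouped by sorted type, tissue and age). Spleen macrophages are high for 9 of the 10 genes in all 8 libraries, tumor regulatory T cells are high for Ltf and Mmp9 alone, and the CD8 T cell columns stay at or under 9.36 CPM.

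Spleen macrophages had the highest mean of all 20 groups for each of the 10 genes, first at 12 months and second at 3 months. For every gene but Elane the 8 spleen macrophage libraries lay above all 66 other libraries. The summed level of the 10 genes was 13448, 45104, 19432 and 10901 CPM in the 4 libraries of 12 months, replicates 1 to 4, and 7928, 15682, 6960 and 4716 CPM in those of 3 months. Replicate 2 at 12 months stood above the rest, and the ages overlapped. In that library the 10 genes took 4.51% of all counts, against 0.472% in the lowest of the 8, replicate 4 at 3 months. Tumor macrophages held 943, 517, 90.4 and 241 CPM at 12 months and 103, 43.8, 29.3 and 316 CPM at 3 months, so the tissues did not overlap. The spleen mean over the tumor mean was 54.4 for the sum. It was 210 for Camp, 168 for Ltf and 157 for Ngp, against 12.2 for Retnlg and 9.46 for Mmp8.

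S100a8 and S100a9 encode the chains of calprotectin, a calcium and zinc binding protein of the neutrophil cytosol. S100a9 was measured at 2501, 5774, 4234 and 2409.5 CPM in spleen macrophages at 12 months and at 1633, 2856, 1785 and 829.7 CPM at 3 months. S100a8 was measured at 1501, 3456, 2988 and 1601 CPM at 12 months and at 1098, 1845, 1204 and 521 CPM at 3 months. Both genes were highest in replicate 2 at each age, and the ages overlapped. Per kilobase of exon S100a9 was the most abundant of the 10 in these libraries, with 5273 ± 3021 CPM per kilobase, followed by Ngp with 2800 ± 3146 and S100a8 with 2560 ± 1417 (SD, n = 8).

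Among the secondary granule genes, replicate 2 at 12 months stood above the other spleen macrophage libraries. Ltf, which encodes the iron-binding lactoferrin, was measured at 2239, 12633, 2543 and 1795 CPM at 12 months and at 1157, 3198, 704 and 897 CPM at 3 months. Replicate 2 at 12 months was 4.97 times the next highest library of that age. Ngp, which encodes the cystatin-related neutrophilic granule protein, followed it closely, at 2516, 12659, 3274 and 2091 CPM in the libraries of 12 months and 1437, 3348, 1204 and 849 CPM at 3 months. Camp, the cathelicidin gene, stood at 437, 2891, 1060.1 and 621 CPM at 12 months and at 434, 805, 287 and 138 CPM at 3 months. Lcn2, whose product binds bacterial siderophores, stood at 1003, 4231, 1523 and 808 CPM at 12 months and at 588, 1259, 491 and 323 CPM at 3 months. Replicate 2 was the highest library of its age for all of these 4 genes at both ages, and each gene overlapped between the ages.

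Mmp9 and Retnlg did not share the high value of that library. Mmp9, gelatinase B of the tertiary granules, was measured at 1909.9, 1882, 2168 and 819.7 CPM at 12 months and at 860.4, 1393, 723 and 659 CPM at 3 months. Replicate 2 at 12 months was 0.868 times the highest other library of its age for Mmp9 and 0.535 times for Retnlg, the gene of a resistin-like secreted protein. Retnlg stood at 651, 647, 1209.9 and 421 CPM at 12 months and at 404, 628, 362 and 216 CPM at 3 months. Mmp8, the neutrophil collagenase, stood at 611, 914, 432 and 296 CPM at 12 months and at 314, 346, 200.3 and 279.8 CPM at 3 months, and it was highest in replicate 2 at 12 months, at 1.496 times the next library of that age. From the lowest to the highest of the 8 libraries the level differed 3.29-fold for Mmp9 and 4.56-fold for Mmp8, against 17.9-fold for Ltf and 20.9-fold for Camp. Without replicate 2 at 12 months the same ratios were 3.29 for Mmp9, 3.05 for Mmp8 and 5.61 for Retnlg, against 4.54 for Ltf, 3.94 for Ngp, 7.66 for Camp and 4.71 for Lcn2, while S100a8 had 5.74 and S100a9 5.10. As a set, Ltf, Ngp, Camp and Lcn2 thus did not keep their wider spread without that library.

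Elane, the neutrophil elastase gene of the primary granules, had a pattern of its own. It was measured at 79.4, 16.7, 0 and 38.6 CPM in spleen macrophages at 12 months and at 1.82, 2.80, 0 and 1.95 CPM at 3 months. Its highest library was replicate 1 at 12 months, which was not high for the secondary granule genes, and 1 library of each age had no count. Not all other primary granule genes followed it. Mpo and Prtn3 ran in the same order as Elane over the libraries of 12 months, highest in replicate 1, then 4, 2 and 3. Mpo, the myeloperoxidase gene, stood at 105 and 24.5 CPM in replicates 1 and 4 at 12 months, against 3.27 CPM or less in the other 6. Prtn3, the proteinase 3 gene, stood at 31.0 and 23.3 CPM there, against 4.13 to 9.48 CPM in the other 6. Ctsg, the cathepsin G gene, was highest in replicate 3 at 12 months, at 4.86 CPM from 16 reads, where Elane had no count. Ms4a3, a membrane protein gene of myeloid progenitors, was highest in replicate 2 at 12 months, at 30.3 CPM against 12.97 CPM in replicate 1 and 8.75 CPM in replicate 4 of that age.

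**Figure D2:**
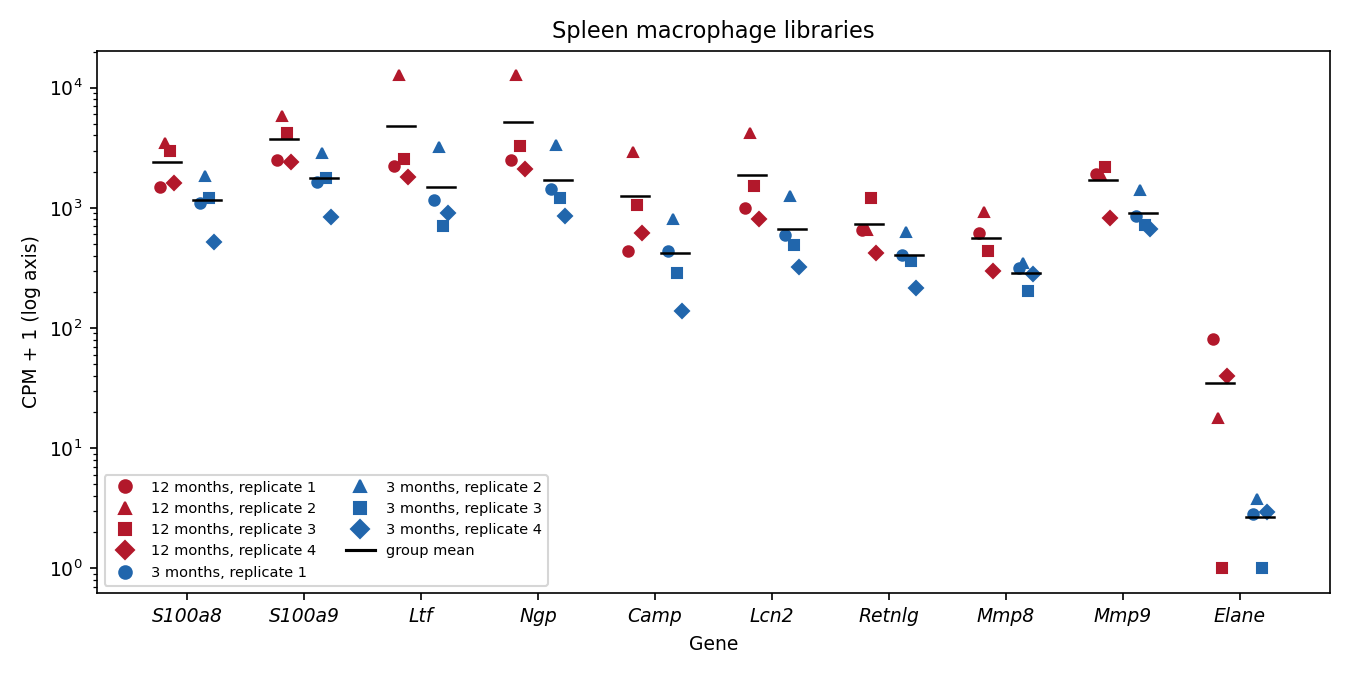
Level of each gene in the 8 spleen macrophage libraries, as CPM + 1 on a log axis, at 12 months (red, left) and 3 months (blue, right), with 1 symbol per replicate number and a line for the group mean. The triangle of replicate 2 at 12 months stands apart for Ltf, Ngp, Camp and Lcn2, lies within the other libraries for Retnlg and Mmp9, and Elane is highest in replicate 1.

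The mean of the 4 libraries of 12 months over that of 3 months was 2.52 for the summed level, 3.22 for Ltf, 3.00 for Ngp, 1.86 for Mmp9 and 1.82 for Retnlg. Without replicate 2 at 12 months the ratio was 1.65 for the sum, 1.47 for Ltf, 1.54 for Ngp, 1.80 for Mmp9 and 1.89 for Retnlg. The age difference of Ltf and Ngp thus rested mostly on that library, and for no gene did the ages separate. Elane had a ratio of 20.5 with that library and 23.9 without it.

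Other neutrophil transcripts varied among the same 8 libraries, and their part in the levels of the 10 genes was not tested. Cebpe, the factor for secondary granule genes, was highest in replicate 2 at 12 months with 38.2 CPM, against 1.65 to 10.9 CPM in the others. Ly6g, a neutrophil surface marker, stood at 294 CPM there against 23.1 to 83.9 CPM, and Cd177, a neutrophil surface and granule protein, at 2204 CPM against 384 to 935 CPM. The cell division genes Mki67, with 159 CPM, and Top2a, with 158 CPM, were also highest there, against 67.7 to 123 CPM for Mki67 and 36.8 to 80.1 CPM for Top2a in the others. The receptors of mature neutrophils did not follow. Csf3r, the receptor of granulocyte colony-stimulating factor, stood at 1449.5 CPM in that library and at 1243 to 2758 CPM in the others, and the chemokine receptor Cxcr2 stood at 577 CPM against 385 to 1136 CPM. Adgre1 was not high in that library, with 249 CPM against 240.0 to 402 CPM in the others. The eosinophil peroxidase gene Epx was at 0.384 CPM or less in all 8.

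The proportions among the transcripts differed less than their levels. S100a9 made up 58.6% to 62.6% of the S100a8 and S100a9 reads in the 8 spleen macrophage libraries. In the 7 tumor macrophage libraries with enough reads of the pair, the share ran from 60.8% to 71.2%. In the 6 spleen dendritic cell libraries it ran from 50.8% to 57.9%, below the 8 spleen macrophage libraries without overlap. The dendritic cell library with the most reads of the pair had a share of 57.8% with an interval of 54.8% to 60.6% (95%, Clopper-Pearson), which takes in the lowest macrophage share. Such intervals cover counting error alone. Ltf made up 28.0% of the reads of the 10 genes in replicate 2 at 12 months and 10.1% to 20.4% in the other 7 spleen macrophage libraries, while S100a9 made up 12.8% there and 17.6% to 25.6% in the others.

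Tumor macrophages held the same transcripts at lower levels and in another proportion. S100a9 stood at 165, 139, 19.9 and 35.1 CPM in the libraries of 12 months and at 18.8, 11.3, 1.89 and 47.6 CPM in those of 3 months. The ages overlapped. Retnlg stood at 125, 22.5, 11.6 and 57.1 CPM at 12 months and at 22.0, 5.88, 5.91 and 122 CPM at 3 months, and Mmp8 at 56.4, 179.5, 11.6 and 29.8 CPM at 12 months and at 12.5, 13.1, 14.6 and 41.1 CPM at 3 months. Mmp9 stood at 89.7, 78.0, 32.7 and 82.4 CPM at 12 months and at 32.3, 6.75, 4.49 and 69.2 CPM at 3 months. S100a9, Retnlg, Mmp8 and Mmp9 were present in all 8 libraries. Ltf, Ngp, Camp and Lcn2 were not. Lcn2 had no count in 1 library and ran from 0.236 to 69.9 CPM in the other 7. Ltf was measured at 142, 0.320, 0 and 0 CPM at 12 months and at 1.22, 1.96, 0.473 and 3.24 CPM at 3 months, and Ngp at 169, 0, 0 and 4.78 CPM at 12 months and at 0.489, 0.218, 0 and 0 CPM at 3 months. Replicate 1 at 12 months was the only tumor macrophage library with Camp reads, at 31.7 CPM. Its neutrophil markers summed to 738 CPM, against 502 to 728 CPM in the other libraries of 12 months and 317 to 658 CPM in those of 3 months. Ly6g was at 3.90 CPM there and at 3.20 CPM in replicate 2 of the same age, in which Ltf was near 0.

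Between the ages in tumor macrophages no difference of the 10 genes passed the test. The share of all genes called, at an adjusted p under 0.05 by edgeR's quasi-likelihood test, was 0.0% of 11007 genes tested, and none of the 6 of the 10 genes that passed the low-count filter was called. The test made 663 calls over all genes at an unadjusted p under 0.05, S100a8 among them, and DESeq2 called 3 genes in all and none of the 6. S100a8 averaged 52.5 ± 42.2 CPM at 12 months and 10.4 ± 10.6 CPM at 3 months (SD, n = 4 each), a log2 ratio of 2.29 (SE 0.96, adjusted p = 0.806). Lcn2 averaged 24.3 ± 30.9 CPM at 12 months and 2.97 ± 3.38 CPM at 3 months, with a log2 ratio of 2.99 (SE 1.33, adjusted p = 0.806). The log2 fold changes of the remaining 4 were 2.13 (SE 1.00) for S100a9, 1.74 (SE 0.85) for Mmp8, 1.26 (SE 0.81) for Mmp9 and 0.40 (SE 1.18) for Retnlg. All 6 estimates were positive, with errors too wide for a call. Of the other secondary and tertiary granule genes fixed as a list, 13 of 16 were tested and 0 were called, with a median log2 fold change of -0.09, against -0.0006 over all genes. Lyz2, the lysozyme gene shared with macrophages, led that list at 5085 ± 363 CPM in the libraries of 12 months and 6255 ± 1848 CPM in those of 3 months.

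In dendritic cells the transcripts were low in both tissues, and lower in the tumor for 5 genes. Mmp9 ranged from 0 to 0.544 CPM with a median of 0 in the 7 tumor libraries and from 17.1 to 53.4 CPM with a median of 24.8 in the 6 spleen libraries. S100a8 ranged from 0 to 1.27 CPM with a median of 0.318 in tumor and from 8.96 to 77.6 CPM with a median of 27.6 in spleen. S100a9 ranged from 0 to 0.318 CPM with a median of 0 in tumor and from 11.6 to 106 CPM with a median of 31.2 in spleen. The tissues did not overlap for these 3 of the 10 genes, where 11.1% of 34806 genes with a read in these libraries did not overlap.

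Of the 10 genes, 7 passed the low-count filter and 5 fell in tumor dendritic cells, while the test called 22.7% of 13981 genes lower and 47.1% in either direction. S100a8, S100a9, Mmp9, Lcn2, Retnlg and Ltf passed the filter through the spleen libraries alone, with 16, 3, 6, 11, 26 and 36 reads in all tumor libraries, so their falls are not read against that share. Mmp9 averaged 0.137 ± 0.206 CPM in tumor and 31.8 ± 15.9 CPM in spleen (SD, n = 7 and 6), a log2 ratio of -8.45 (SE 0.55, adjusted p = 8.78e-08). S100a8 averaged 0.376 ± 0.431 CPM in tumor and 31.8 ± 24.6 CPM in spleen, a log2 ratio of -6.20 (SE 0.72, adjusted p = 2.08e-05). S100a9 fell as well (adjusted p = 4.73e-05), and since only 3 reads were counted in all tumor libraries against 1312 in spleen, its change is given as the spleen over tumor ratio of pooled levels, 612 with a counting interval of 209 to 2973. Without replicate 3 of the spleen at 12 months, which held about as many of these reads as the other 5 libraries together, that ratio was 379 with an interval of 129 to 1841. Lcn2 averaged 0.244 ± 0.481 CPM in tumor and 6.15 ± 8.99 CPM in spleen and fell by 5.75 on the log2 scale (SE 1.63, adjusted p = 0.0147). Retnlg averaged 0.590 ± 0.554 CPM in tumor and 4.304 ± 3.30 CPM in spleen and fell by 2.93 on the log2 scale (SE 0.95, adjusted p = 0.0194). The call of Retnlg was lost without the 2 libraries of conflicting age labels (adjusted p = 0.0789), without replicate 3 of the spleen at 3 months (adjusted p = 0.216) and without replicate 1 of the tumor at 12 months (adjusted p = 0.0522).

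Mmp8 and Ltf were tested and not called. Mmp8 averaged 3.53 ± 1.77 CPM in tumor dendritic cells and 3.15 ± 2.90 CPM in spleen dendritic cells, with a log2 ratio of 0.63 (SE 0.54, adjusted p = 0.361). It was the one gene of the 7 tested with a positive estimate in this comparison and was counted in all 13 libraries. Ltf averaged 0.847 ± 0.522 CPM in tumor and 3.88 ± 6.18 CPM in spleen, with a log2 ratio of -0.83 (SE 0.81, adjusted p = 0.426). Ngp, Camp and Elane did not pass the filter. Camp had no count in tumor dendritic cells and 246 in spleen, so the pooled tumor level was at least 115-fold lower, taking 3 counts over the tumor group as the floor. Without replicate 3 of the spleen at 12 months, which held 230 of those reads, the limit was 9.28-fold. Elane had 12 counts in tumor and 20 in spleen.

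**Figure D3:**
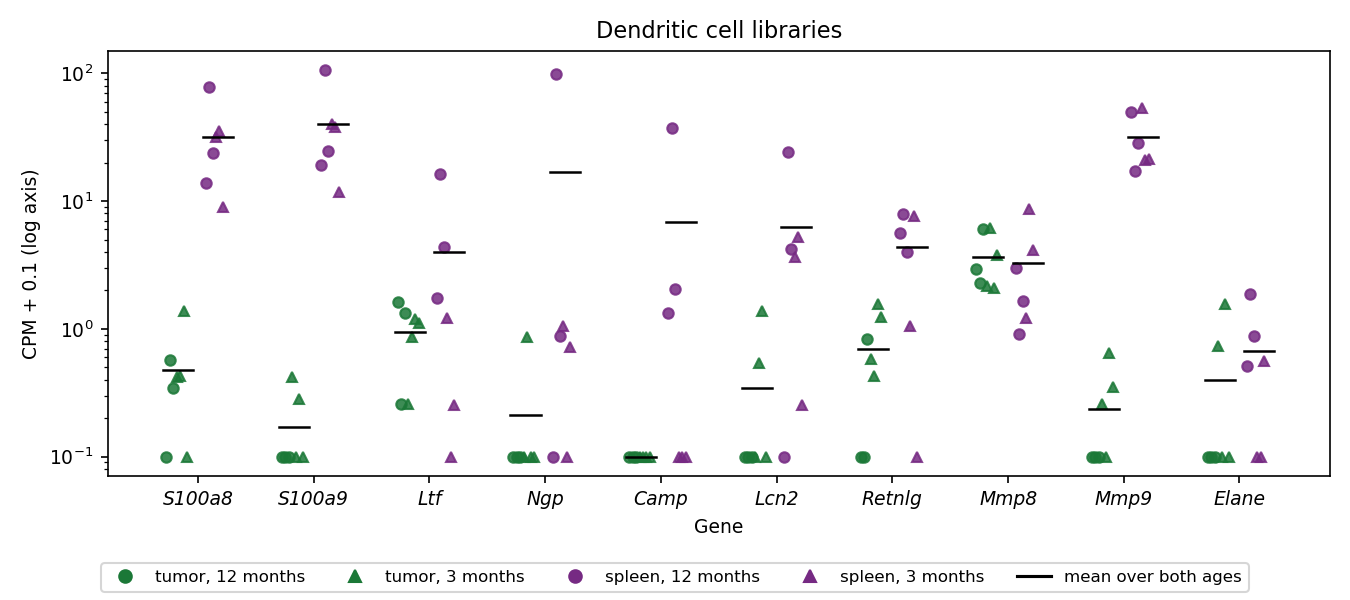
Level of each gene in the 7 tumor (green, left) and 6 spleen (purple, right) dendritic cell libraries, as CPM + 0.1 on a log axis, with circles for 12 months, triangles for 3 months and a line for the mean over both ages. S100a8, S100a9 and Mmp9 separate the tissues, Mmp8 does not, and 1 spleen library of 12 months is high for Ngp and Camp.

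Many other genes of neutrophils were higher in the tumor in the same comparison, in which 24.4% of all genes tested rose. Of 16 other secondary and tertiary granule genes 13 were tested, 8 rose and 2 fell, with a median log2 fold change of 1.29, against -0.04 over all genes. Lyz2 averaged 2049.7 ± 1272 CPM in tumor and 512 ± 237 CPM in spleen, a log2 ratio of 2.32 (SE 0.45, adjusted p = 0.00213). Cyba, a chain of the oxidase that phagocytes share, rose by 0.71 (SE 0.12, adjusted p = 0.00027), and its partner Cybb averaged 1125 ± 419.8 CPM in tumor and 1072 ± 159 CPM in spleen (adjusted p = 0.185). Pglyrp1, a peptidoglycan recognition protein of neutrophil granules, was 1 of the 2 that fell, with 12.5 ± 8.60 CPM in tumor and 105 ± 20.03 CPM in spleen (adjusted p = 0.000737), and Hp, the haptoglobin gene, was the other, with 3.69 ± 1.46 CPM in tumor and 14.3 ± 3.34 CPM in spleen (adjusted p = 0.000523). Of 22 other neutrophil genes 15 were tested, 8 rose and 1 fell. Il1b, the interleukin 1 beta gene, rose with 3748 ± 1099.5 CPM in tumor against 134 ± 46.6 CPM in spleen, and Il1r2, the decoy receptor for interleukin 1, rose with 1679 ± 649 CPM in tumor against 55.8 ± 20.1 CPM in spleen. Asprv1, a protease gene, was the one that fell, with 0.470 ± 0.692 CPM in tumor against 24.8 ± 11.2 CPM in spleen (adjusted p = 8.41e-06). It passed the filter through the spleen libraries alone, so its fall is not read against the share of genes called lower. Ifitm6, with 77.7 ± 49.3 CPM in tumor and 185 ± 42.99 CPM in spleen, was not called (adjusted p = 0.0755). The genes that rose in these lists are transcribed by other myeloid cells too. Csf3r rose with 27.0 ± 12.95 CPM in tumor against 14.9 ± 5.04 CPM in spleen (adjusted p = 0.0109).

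One spleen dendritic cell library stood apart in its mix of the 10 transcripts. Replicate 3 at 12 months held Ngp at 98.5 CPM, Camp at 37.0 CPM, Lcn2 at 24.0 CPM and Ltf at 16.1 CPM. In the other 5 spleen dendritic cell libraries, Ngp was at 0.960 CPM or less, Camp at 1.95 or less, Lcn2 at 5.13 or less and Ltf at 4.296 or less. Its neutrophil markers outside the 10 genes, most of whose sum came from Pglyrp1 and Il1r2, summed to 163 CPM against 162 to 245 CPM in the other 5. Of 44 other neutrophil and granule genes, 39 had a read in these libraries. Of these, 9 were highest in replicate 3 at 12 months, against 4 to 8 in each of the other 5 libraries. Some were lowest there, such as Adam8 with 97.7 CPM and Ifitm6 with 121 CPM. The genes named next were among those highest there. Chil3, a chitinase-like protein gene, stood at 20.8 CPM against 2.54 CPM or less in the other 5, Cd177 at 9.82 CPM against 3.91 or less, Itgb2l, an integrin chain gene, at 6.11 CPM against 0.391 or less, and Wfdc21 at 2.09 CPM against 1.76 or less. Ly6g was at 0 in that library, and Csf3r stood at 10.5 CPM against 9.58 to 19.8 CPM in the others. Its B cell markers summed to 2794 CPM, the highest of the 6, against 449 to 2367 CPM, and their part in the levels of the 10 genes was not tested.

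In the age comparison of spleen dendritic cells, 6 of the 10 genes passed the filter and 0 were called, where 0.593% of 12650 genes were called. By unadjusted p, 0 of the 6 were under 0.05, and none was called by DESeq2. Mmp9 averaged 31.8 ± 16.7 CPM at 12 months and 31.9 ± 18.7 CPM at 3 months (SD, n = 3 each), with a log2 ratio of 0.05 (SE 0.26, adjusted p = 0.970). S100a8 averaged 38.3 ± 34.3 CPM at 12 months and 25.3 ± 14.3 CPM at 3 months, with a log2 ratio of 0.48 (SE 1.02, adjusted p = 0.906). Ltf and Camp did not pass the filter, and they were the 2 of the 10 genes whose ages did not overlap, where 9.87% of 30178 genes with a read in these libraries did not overlap. Ltf stood at 1.65, 16.1 and 4.296 CPM at 12 months and at 1.12, 0 and 0.154 CPM at 3 months. Camp stood at 1.23, 37.0 and 1.95 CPM at 12 months and had no count at 3 months, so its pooled level was at least 79.2-fold higher at 12 months, taking 3 counts over the group of 3 months as the floor. Without replicate 3 at 12 months the limit was 8.36-fold. Without the low-count filter the test called both. These age results for Ltf and Camp follow the titles. By their age tags, replicates 3 and 4 at 3 months belong to 12 months, and both genes then overlapped between the ages.
In tumor dendritic cells, Mmp8 alone passed the filter for the age comparison, and it averaged 3.65 ± 1.99 CPM in the libraries of 12 months and 3.44 ± 1.89 CPM in those of 3 months (SD, n = 3 and 4). Its log2 fold change was 0.13 (SE 0.61, adjusted p = 0.9998), in a comparison that called 0.0% of 12090 genes, with 158 genes at an unadjusted p under 0.05 and 2 called by DESeq2.

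Regulatory T cells of the tumor held Ltf and Mmp9 without the other 8 transcripts. Ltf was measured at 123, 98.7, 151 and 66.6 CPM in the tumor libraries of 12 months and at 229.7, 112, 153 and 86.4 CPM in those of 3 months. All 8 lay above the 8 spleen regulatory T cell libraries, which ranged from 0 to 2.93 CPM with a median of 0.0952. The mean was 109.8 ± 35.7 CPM at 12 months and 145 ± 62.5 CPM at 3 months (SD, n = 4 each), and the ages overlapped. Mmp9 was measured at 46.3, 81.8, 64.3 and 11.6 CPM at 12 months and at 105, 55.0, 58.4 and 32.1 CPM at 3 months, against 0.221 to 7.20 CPM with a median of 1.67 in the spleen. Per kilobase of exon the tumor libraries held 37.0 ± 14.7 CPM of Ltf and 16.0 ± 8.09 CPM of Mmp9 (SD, n = 8).

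The remaining 8 genes were at or near 0 in the tumor regulatory T cell libraries. The highest value in any of the 8 libraries was 0.306 CPM for S100a8, 0.417 CPM for S100a9, 1.21 CPM for Ngp, 0.150 CPM for Camp, 0.244 CPM for Lcn2, 0.150 CPM for Retnlg, 1.21 CPM for Mmp8 and 0.241 CPM for Elane. Pooled over these libraries, 5162 reads of Ltf and 2365 of Mmp9 were counted beside 3 of S100a9, 1 of S100a8, 19 of Ngp and 2 of Lcn2. In the 8 spleen macrophage libraries 121244 reads of Ltf were counted beside 99413 of S100a9, 63510 of S100a8, 129991 of Ngp and 47829 of Lcn2. The transcripts that accompanied Ltf in the macrophage sort were thus nearly absent beside it in the regulatory T cell sort. Among the 7 tumor regulatory T cell libraries with enough reads, Ltf made up 54.7% to 72.2% of the reads of the 10 genes and Mmp9 26.5% to 45.3%.

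**Figure D4:**
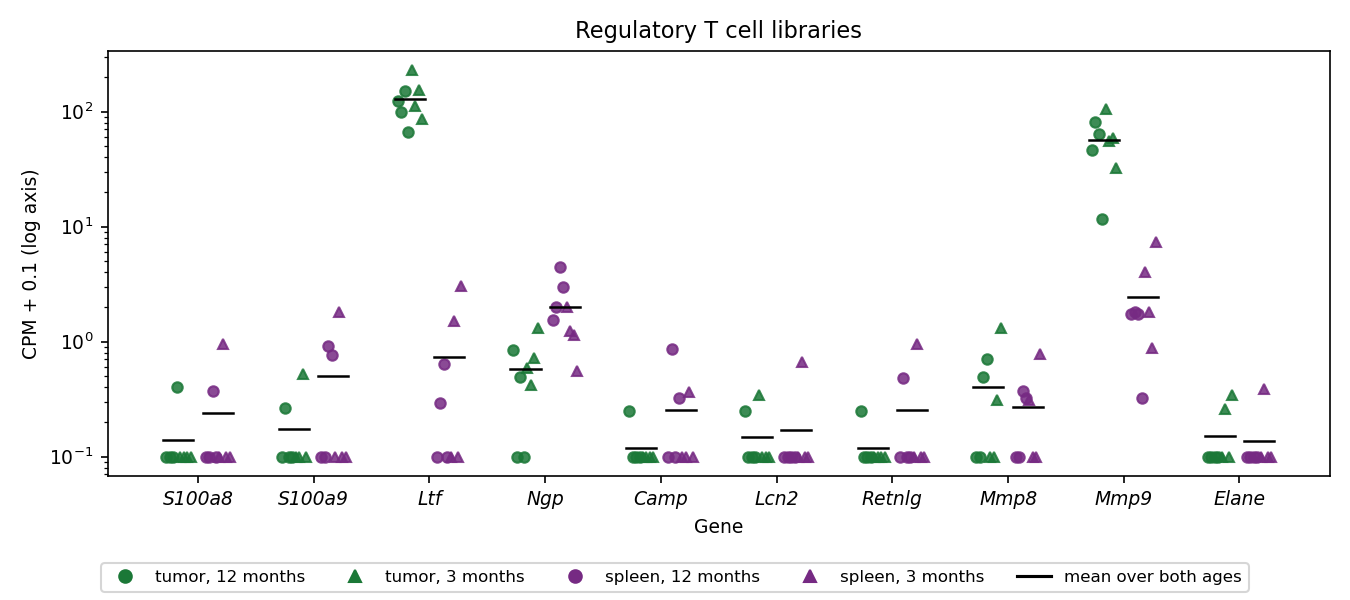
Level of each gene in the 8 tumor (green, left) and 8 spleen (purple, right) regulatory T cell libraries, as CPM + 0.1 on a log axis, with circles for 12 months, triangles for 3 months and a line for the mean over both ages. Ltf and Mmp9 separate the tissues, and the other 8 genes stay at or under 1.21 CPM in the tumor.

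Some neutrophil genes were also at or near 0 in the tumor regulatory T cells, while Il1r2, Pglyrp1 and Ly6g were higher there than in the spleen. Cebpe, Prtn3, Wfdc21 and Stfa2l1 were at 0 in all 8 libraries, and Csf3r averaged 0.414 CPM, Cxcr2 0.256 CPM and Mpo 0.0187 CPM. The neutrophil marker list nevertheless summed to 414 to 653 CPM there, against 59.3 to 247 CPM in spleen regulatory T cells, and nearly all of it came from 2 genes. Il1r2 averaged 344 ± 94.2 CPM in tumor and 88.8 ± 70.5 CPM in spleen, and Pglyrp1 averaged 155 ± 50.9 CPM in tumor and 43.1 ± 12.2 CPM in spleen (SD, n = 8 each). Ly6g averaged 4.54 ± 2.80 CPM in tumor and was at 0 in all 8 spleen libraries, with the limit that reads of close Ly6 family members may be shared among them. The macrophage list summed to 29.0 to 86.6 CPM in tumor against 33.3 to 66.9 CPM in spleen. Lists of epithelial and milk protein genes, which mark other cells that secrete lactoferrin, summed to 16.98 to 55.1 and 0.787 to 2.45 CPM in tumor, against 17.7 to 43.6 and 0 to 2.26 CPM in spleen.

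Other granule genes differed in either direction between tumor and spleen regulatory T cells, given here with no test. Of 16 other secondary and tertiary granule genes, 10 had a mean of at least 1 CPM in either tissue, and the tumor mean was higher for 7 and lower for 3 of them. Adam8, a membrane protease of neutrophils and other leukocytes, averaged 222 ± 32.9 CPM in tumor and 8.03 ± 3.11 CPM in spleen. Cst7, a cystatin of cytotoxic lymphocytes as well, averaged 324 ± 98.5 CPM in tumor and 133 ± 31.7 CPM in spleen. Cybb was among the 3 that were lower, with 22.1 ± 13.9 CPM in tumor and 55.5 ± 23.5 CPM in spleen, as were Lyz2, with means of 2.73 and 5.18 CPM in tumor and spleen, and Cd177. Ccrl2, an atypical chemokine receptor gene whose nearest end lies 11719 bases from Ltf, averaged 203 ± 54.5 CPM in tumor and 16.8 ± 4.64 CPM in spleen. Its mean was higher in tumor than in spleen in every other sort too. In CD8 T cells it averaged 38.5 CPM in tumor and 1.29 CPM in spleen, where Ltf averaged 0.129 and 0.149 CPM. Rtp3, 28688 bases away on the other side of Ltf, averaged 0 CPM in tumor regulatory T cells. Lrrc2, 35205 bases away on the same side as Rtp3, averaged 0.645 CPM in tumor regulatory T cells and 0.461 CPM in those of the spleen. Between the ages in spleen regulatory T cells none of the 10 genes passed the filter, in a comparison that called 0.0489% of 12261 genes. Il1r2 was among those called, at 149.8 ± 40.3 CPM in the libraries of 12 months and 27.7 ± 6.58 CPM in those of 3 months (log2 fold change 2.42, SE 0.22, adjusted p = 0.000138).

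Ltf and Mmp9 were also the genes counted most in tumor conventional CD4 T cells, the CD25- sort, at lower levels. Of the 10 genes, 2 passed the filter and both rose, where 16.0% of 14661 genes rose and 27.2% were called in either direction. Ltf passed the filter through the tumor libraries alone, so its rise is not read against that share. Mmp9 was measured at 27.4, 19.4, 19.5 and 2.35 CPM in the tumor libraries of 12 months and at 89.2 and 20.1 CPM in those of 3 months, against 2.44 to 13.8 CPM with a median of 4.54 in the 7 spleen libraries. Replicate 4 at 12 months lay within the spleen values, and the other 5 tumor libraries lay above them. The mean was 29.7 ± 30.3 CPM in tumor and 6.38 ± 4.46 CPM in spleen (SD, n = 6 and 7), a log2 ratio of 2.41 (SE 0.49, adjusted p = 0.00106).

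Ltf was measured at 0.722, 0.605, 2.28 and 0 CPM in the tumor libraries of this sort at 12 months and at 4.99 and 4.90 CPM at 3 months, against 0 to 0.980 CPM with a median of 0 in spleen. Its log2 fold change was 3.58 (SE 1.16, adjusted p = 0.0223), from 58 reads in tumor and 5 in spleen. That call was lost when any of 5 libraries was left out (replicate 3 of the tumor at 12 months, replicates 1 and 4 of the spleen at 3 months, replicates 1 and 3 of the tumor at 3 months), with adjusted p from 0.0531 to 0.0795. Even the highest of these libraries was far below the tumor regulatory T cells, whose lowest value was 66.6 CPM. Foxp3 stood at 145, 221, 76.1 and 143 CPM in the tumor conventional CD4 T cell libraries of 12 months and at 354 and 226 CPM in those of 3 months. Il2ra, which encodes CD25, stood at 158 to 188 CPM at 12 months and at 318 and 287 CPM at 3 months. The library with the most Foxp3 and Il2ra, replicate 1 at 3 months, also had the most Ltf and Mmp9, and the part of such cells in these levels was not tested.

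Other genes of granules rose in the tumor conventional CD4 T cells too. Of 16 other secondary and tertiary granule genes 10 were tested, 7 rose and 0 fell, with a median log2 fold change of 1.26, against 0.04 over all genes. In this comparison 16.0% of 14661 genes rose and 27.2% were called in either direction. Mmp25 averaged 9.95 CPM in tumor and 0.211 CPM in spleen, and Ltb4r1 40.2 and 1.03 CPM. With genes that low in spleen, the list counts are not read against that share. Cst7 averaged 164 ± 69.7 CPM in tumor and 101 ± 45.5 CPM in spleen (log2 fold change 1.02, SE 0.22, adjusted p = 0.00141), and Cyba, with 199.8 ± 36.8 CPM in tumor and 154 ± 41.7 CPM in spleen, was not called (adjusted p = 0.0604). Of 22 other neutrophil genes 8 were tested, 5 rose and 1 fell. Il1r2 averaged 294 ± 94.9 CPM in tumor and 55.6 ± 59.8 CPM in spleen (log2 fold change 3.65, SE 0.50, adjusted p = 0.000345). Ly6g averaged 3.15 ± 2.55 CPM in tumor and 0.0519 ± 0.137 CPM in spleen (adjusted p = 0.00189), with the limit on Ly6 family reads given above. It was counted in 1 of the 7 spleen libraries and passed the filter through the tumor libraries alone. Its rise is therefore not read against the share of all genes.

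For age in tumor conventional CD4 T cells, Ltf and Mmp9 passed the filter and 0 were called, where 0.0311% of 12882 genes were called. Unadjusted p was 0.0688 for Ltf and 0.0529 for Mmp9, and neither was called by DESeq2. Ltf averaged 0.903 ± 0.974 CPM at 12 months and 4.94 ± 0.0612 CPM at 3 months (SD, n = 4 and 2), with a log2 ratio of -2.32 (SE 1.201, adjusted p = 0.9998), and its ages did not overlap. Between 4 and 2 libraries, 8.77% of 34533 genes with a read did not overlap. Mmp9 averaged 17.2 ± 10.6 CPM at 12 months and 54.6 ± 48.9 CPM at 3 months, with a log2 ratio of -1.70 (SE 0.75, adjusted p = 0.9496). Without the low-count filter Mmp9 was called (adjusted p = 0.00698). S100a8 also did not overlap between these ages, but it was counted 0 times at 12 months and 5 times at 3 months. The spleen counterpart had Mmp9 alone past the filter, which averaged 8.03 ± 5.37 CPM in the libraries of 12 months and 4.19 ± 1.97 CPM in those of 3 months (SD, n = 4 and 3). It was not called (log2 fold change 0.77, SE 0.62, adjusted p = 0.539), where 3.92% of 11726 genes were.

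CD8 T cells held none of the 10 transcripts at a level that could be tested. No gene of the 10 passed the filter between tumor and spleen, where 42.1% of 13285 genes were called, nor between the ages in spleen, where 1.02% of 11677 were, nor in tumor, where 0.0% of 11804 were (486 at an unadjusted p under 0.05, and 12 called by DESeq2). Mmp9 was counted 12 times in the 8 tumor libraries and 12 times in the 8 spleen libraries, and Lcn2 was counted in none of the 16. The highest value was S100a8 at 9.36 CPM in replicate 2 of the spleen at 12 months, where S100a9 stood at 5.81 CPM. Other granule genes were present at testable levels. Of 16 other secondary and tertiary granule genes 7 were tested and 6 rose in tumor, where 22.5% of all genes tested rose, with a median log2 fold change of 1.26, against -0.01 over all genes. Cst7 averaged 345 ± 95.7 CPM in tumor and 224 ± 44.0 CPM in spleen (log2 fold change 0.72, SE 0.14, adjusted p = 0.000201), and Pglyrp1 averaged 101 ± 28.0 CPM in tumor and 45.2 ± 15.1 CPM in spleen (log2 fold change 1.26, SE 0.15, adjusted p = 2.26e-07).

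**Figure D5:**
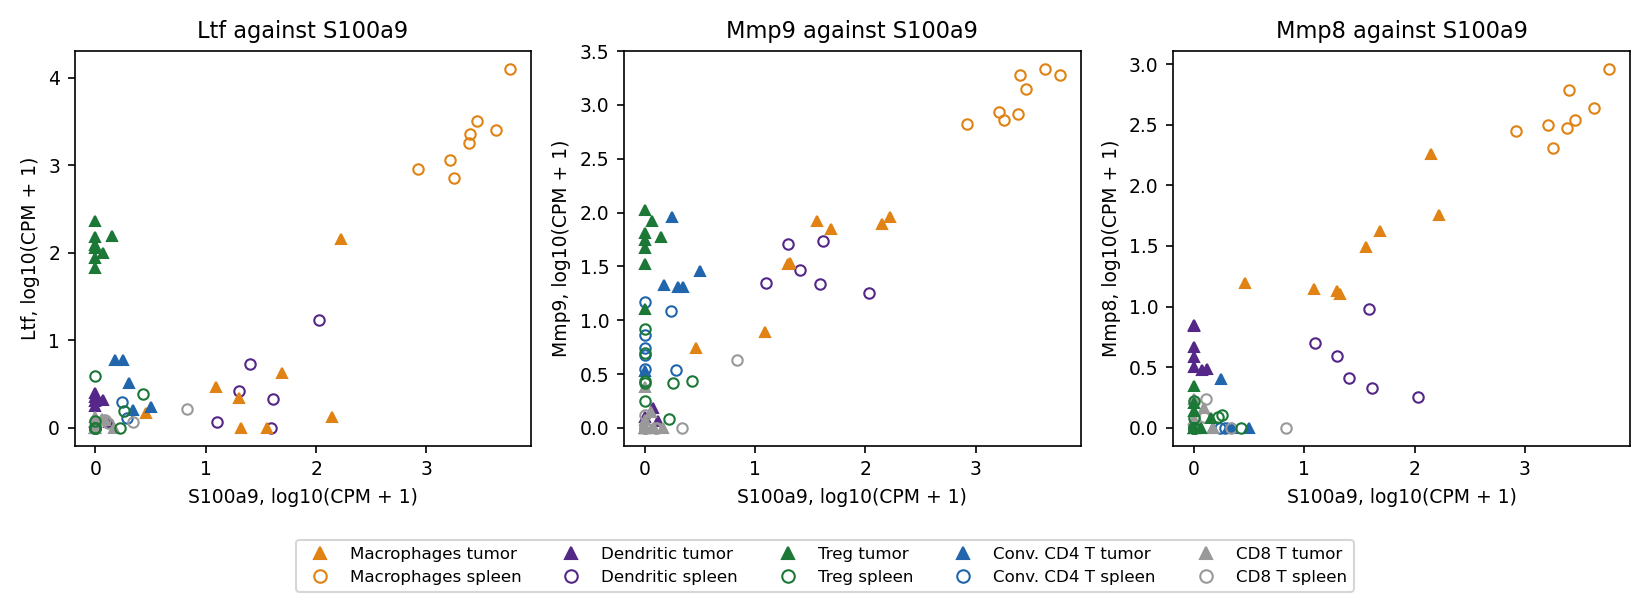
Level of Ltf, Mmp9 and Mmp8 (vertical, each its own panel) against that of S100a9 (horizontal) in the 74 libraries, all as log10(CPM + 1), with filled triangles for tumor and open circles for spleen. Spleen macrophages are high on both axes of each panel, tumor regulatory T cells lie at the left edge with high Ltf and Mmp9, and tumor dendritic cells lie at the left edge with Mmp8 up to 6.03 CPM.

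Across the 20 group means of log2(CPM + 1), each gene was compared with the mean of the other 9 as a description, since the groups share cell types and the high spleen macrophage means weigh on every value. Pearson's r was highest for Lcn2, at 0.988, and lowest for Ltf, at 0.799, followed by Mmp9 at 0.836, and the other 7 genes lay from 0.851 (Elane) to 0.958 (S100a8). Ltf and Mmp9 were the genes found in tumor regulatory T cells. In the order of group means, tumor regulatory T cells of 3 and 12 months took the next places for Ltf, after the spleen macrophages and before tumor macrophages of 12 months, which overlapped with them because of 1 library. For Mmp9 places 3 to 8 were held by tumor macrophages of 12 months (70.7 ± 25.8 CPM), tumor regulatory T cells of 3 months (62.5 ± 30.4), tumor conventional CD4 T cells of 3 months (54.6 ± 48.9), tumor regulatory T cells of 12 months (51.0 ± 29.98) and spleen dendritic cells of 3 months (31.9 ± 18.7) and 12 months (31.8 ± 16.7). Each of these overlapped with the next. For S100a8 and S100a9 places 3 to 6 went to tumor macrophages of 12 months, spleen dendritic cells of 12 and of 3 months and tumor macrophages of 3 months, each overlapping with the next.

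Among 10599 genes with at least 10 CPM in their highest group mean, those most like the mean of the 10 genes were Chil1 (r = 0.982), Lrg1 (0.981), Il1f9 (0.975), Bmx (0.972), Ceacam10 (0.972), Cyp2ab1 (0.969), Slco4c1 (0.9665) and Stfa2l1 (0.963). Lrg1, which encodes a leucine-rich glycoprotein of neutrophil granules, averaged 414 CPM in spleen macrophages and 13.3 CPM in tumor macrophages. Those most like Ltf alone were Ncam1 (r = 0.9695), Ly6g (0.937), Dgkg (0.9035), Cited4 (0.901), Dhrs7 (0.896), Mdm1 (0.896), Tmem40 (0.888) and Cyb561 (0.880). Ncam1, a cell adhesion gene, averaged 32.6 CPM in spleen macrophages and 6.41 CPM in tumor regulatory T cells, against 0.850 CPM in spleen regulatory T cells. Over the 8 tumor regulatory T cell libraries, among 9058 genes of at least 5 CPM, Ltf varied most like Dusp5 (r = 0.973), Efcab14 (0.966), Fam193b (0.959), Zfp275 (0.955), Atf6b (0.953), Limd2 (0.952), Patl1 (0.9485) and Aqr (0.948). Dusp5, a phosphatase that acts on ERK kinases, averaged 140.0 ± 39.3 CPM in the tumor regulatory T cells and 37.6 CPM in those of the spleen. These are the highest of many correlations over 8 or 20 points, and they carry no test.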

How the data were processed

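RNA was sequenced from 74 sorted bulk libraries, with reads aligned to mm10 by STAR 2.5.3 and counted by featureCounts, per the submitters' processing notes. Annotation, strand setting and treatment of multiply mapped reads: not given in the sources used here. The deposited table holds raw read counts per gene symbol, and 0 of its columns belong to no sample. From these counts, CPM was computed over library totals. Tests used edgeR 4.0.16 (quasi-likelihood, robust, TMM, filterByExpr) in R 4.3.3 with limma 3.58.1, Benjamini-Hochberg adjustment over all genes tested and a threshold of 0.05. Tumor and spleen were compared in 1 fit of the 4 groups of a cell type, averaged over the ages, and the ages in a fit of the 2 groups, in 11 comparisons. Sex was a covariate in dendritic cells. DESeq2 1.42.0 was an alternative. Spleen macrophages and tumor regulatory T cells were described without a test. Nothing states that libraries came from separate animals, so p-values measure only the spread between libraries. None of 103 replicate pairs was identical. The fits were tested on simulated data. Tables were made with Python 3.11.15, numpy 2.4.6, pandas 2.3.3 and scipy 1.17.1.

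The 10 genes and all lists were chosen with earlier results of these data known. By rule, each list gave up to 3 genes of highest mean CPM in a comparison, and the 8 genes most like a profile were named. Other list genes and Ccrl2, Rtp3 and Lrrc2, neighbours of Ltf, were named after their values were seen. Composition is given for libraries with at least 300 reads of the 10 genes, or 30 of the S100 pair. Intervals and limits from counts cover counting error alone. Alternatives were another normalization, no low-count filter, DESeq2, a replicate block, other samples in the fit, other uses of the conflicting age labels, no sex covariate, other CPM totals and each library left out.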

Additional observations from a re-analysis of the deposited data

Results flagged for a closer look

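Within groups of 4 libraries, a library was singled out where its gap to the nearest of the others, over the whole range, exceeded Dixon's 95% critical value. Of 45 sets of 4 values with a mean of at least 10 CPM, 7 met this rule. Chance alone would give about 1 in 20 for independent sets of normal values. These sets share libraries and genes that vary together, so the 7 are not read against that rate. The rule serves to point out libraries and is not a test. In tumor macrophages of 12 months, replicate 1 stood apart for Ltf, at 142 CPM against 0 to 0.320 CPM in the other 3 libraries. The same library stood apart for Ngp, at 169 CPM against 0 to 4.78 CPM, and for Lcn2, at 69.9 CPM against 1.51 to 13.1 CPM. In spleen macrophages of 12 months, replicate 2 stood apart for Ltf, at 12633 CPM against 1795 to 2542.5 CPM, and for Ngp, at 12659 CPM against 2091 to 3274 CPM. In tumor macrophages of 3 months, replicate 4 stood apart for Retnlg, at 122 CPM against 5.88 to 22.0 CPM, and for Mmp8, at 41.1 CPM against 12.5 to 14.6 CPM. That library also had the lowest summed macrophage markers among tumor macrophages, at 14164 CPM against 24370.5 to 38119 CPM in the other 7 tumor libraries, and this was not tested against the levels of the 10 genes.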

How the results depend on the processing

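Of the log2 fold changes of single genes, 347 kept their direction and side of the threshold under the alternatives, 10 lost a call, 1 gained one and 21 changed sign. Of the summary values 194 stayed and 9 moved. In conventional CD4 T cells, the number of the 10 genes called between tumor and spleen was 1 with the replicate block, which lost Ltf (log2 fold change 3.89, adjusted p = 0.0594), and 1 to 2 with a library left out. Between tumor and spleen dendritic cells it was 4 to 5 with a library left out, the lost gene being Retnlg, which was also lost with age tags in place of titles (adjusted p = 0.173). In the age comparison of spleen dendritic cells it was 2 with no low-count filter (Ltf and Camp) and 1 without the libraries of conflicting age labels (Lcn2). That last fit kept 1 library of 3 months, a male one at 3.52 CPM, and with the sex covariate its estimate rests on the 1 male library of 12 months, at 0 CPM, against means of 9.36 CPM at 12 months and 2.93 CPM at 3 months over all libraries, so no direction is read from it. In tumor conventional CD4 T cells it was 1 between the ages with no low-count filter (Mmp9, -1.75).

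Sign changes between the ages in spleen dendritic cells came without the libraries of conflicting labels and with age tags in place of titles: Lcn2 stood at -7.29 and -7.20, Mmp8 at 1.38 and 1.40, Mmp9 at -0.065 and -0.039, S100a8 at -1.16 and -1.13, and S100a9 at -1.05 and -1.02. With a library left out, the range was -1.33 to 0.46 for Ltf between tumor and spleen dendritic cells (reversed without replicate 1 of the spleen at 3 months). Between the ages in spleen dendritic cells it was -0.86 to 2.63 for Lcn2, -0.42 to 1.26 for S100a8 and -0.44 to 1.47 for S100a9 (all 3 reversed without replicate 3 at 12 months and without replicate 4 at 3 months), and -0.18 to 0.21 for Mmp9 (reversed without replicate 4 at 12 months). It was -0.33 to 0.52 for Mmp8 between the ages in tumor dendritic cells (reversed without replicate 3 of either age), and -0.44 to 2.22 for Retnlg in tumor macrophages (reversed without replicate 1 at 12 months). Where 1 library remained in a group, it was assumed to vary like the others in the fit. The cause of these changes was not tested. Leaving out replicate 3 of the spleen dendritic cells at 12 months, an alternative chosen after seeing the data, lowered 3 ratios of pooled levels: that of Camp between spleen and tumor from at least 115 to at least 9.28, that of Camp between the ages from at least 79.2 to at least 8.36, and that of S100a9 from 612 to 379.

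The counts of all genes called moved by over 1.5 times in several age comparisons. In spleen dendritic cells 75 genes were called, against 425 with no filter, 303 by DESeq2, 153 with the replicate block, 47 with no sex covariate, 342 without the conflicting labels, 0 with age tags or with all 4 groups in 1 fit, and 0 to 444 with a library left out. In spleen conventional CD4 T cells 460 were called, against 839 with no filter, 881 by DESeq2 and 88 to 2400 with a library left out. In tumor conventional CD4 T cells 4 were called, against 51, 40 and 116 with no filter, by DESeq2 and with the block, 8 with 4 groups and 0 to 11 with a library left out. In spleen CD8 T cells 119 were called, against 192 with no filter and by DESeq2, 75 with 4 groups and 72 to 138 with a library left out. In spleen regulatory T cells 6 were called, against 56, 26 and 12 with no filter, by DESeq2 and with the block, 3 with 4 groups and 2 to 8 with a library left out. In tumor none were called in CD8 T cells, dendritic cells and macrophages, against 39, 4 and 43 with no filter and 12, 2 and 3 by DESeq2. Between tumor and spleen dendritic cells 6583 were called, against 4375 without the conflicting labels.

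Same-numbered libraries were not shown to be paired: correlations of their deviations from group means ran from -0.0128 to 0.535 over the comparisons of ages, and in none were all over 0.1. The replicate block changed no call of the 10 genes other than Ltf in conventional CD4 T cells. The summed level in spleen macrophages, 15521 CPM over 8 libraries, was 16075 CPM with TMM library sizes, 15922 CPM with totals without the 10 genes and 11295 to 17065 CPM with a library left out. Mean Ltf in tumor regulatory T cells, 128 CPM, was 127 and 128 CPM under these scalings and 113 to 136 CPM with a library left out. Depth limits Ltf in conventional CD4 T cells, with 58 reads in tumor and 5 in spleen.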
